A study of Mus musculus with 4 samples.

Results

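The genes described are 45 cell cycle genes of the 27998 genes in each count matrix, taken by name as genes of DNA synthesis and of mitosis, and all 45 were found. By textbook role they comprised 3 G1 cyclins, 16 replication genes, 23 mitosis genes and 3 genes with a broader role. Their unique molecular identifiers (UMIs, each counting 1 captured RNA molecule) were summed by day in 4 gates set by marker UMIs. Proximal tubule cells had at least 1 UMI of Lrp2, Slc34a1 and Cubn together and none of the leukocyte gene Ptprc. Thick limb and distal cells had at least 3 UMIs of Slc12a1 and Slc12a3, macrophages at least 5 of C1qa, C1qb and C1qc, and T cells at least 2 of Cd3d, Cd3e and Cd3g. On D0, D1, D4 and D7 the proximal tubule gate held 11237, 7965, 13400 and 11721 cells of 12784, 10346, 14028 and 12783 kept cells. The thick limb and distal gate held 347, 319, 250 and 373 cells, the macrophage gate 116, 158, 113 and 165, and the T cell gate 222, 423, 180 and 132.

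The study profiled kidney cells of male C57BL/6 mice, 6-8 weeks old, by 10x 3' droplet sequencing after injection of glyoxylate into the peritoneum on 0, 1, 4 or 7 successive days (D0, D1, D4 and D7). Glyoxylate is a precursor of oxalate. Kidneys were dissociated with trypsin and DNase, and red blood cells were lysed. Each day has 1 library, the number of animals behind it is not given in the sources used here, and no test between animals was possible. Each interval given is a 95% interval and covers counting error alone. Intervals of UMI sums and ratios treat UMIs as independent. They leave out which cells were captured, so they are too narrow where few cells hold most of the UMIs.

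The 4 libraries held 85009491 to 99337001 UMIs. Any pair of them shared 50 to 81 cell barcodes, at most 0.537% of the smaller list. The deposited cell lists began at 500 UMIs on D0 and D1 but at 2919 and 2773 UMIs on D4 and D7, so list sums were also taken over cells with at least 3000 UMIs. The 7 proximal tubule markers summed to 39581 to 50702 CPM (UMIs scaled to a gate sum of 1000000) in their gate. In the same gate erythroid markers stood at 0.982, 177, 100.9 and 35.0 CPM on D0, D1, D4 and D7 and macrophage markers at 22.8, 46.0, 46.5 and 113 CPM, and their part in the results was not tested. The gates were not pure. Of the thick limb and distal cells, 173, 139, 178 and 229 also passed the proximal tubule gate. Proximal tubule markers stood at 29654 and 21526 CPM in the T cell gate on D4 and D7, against 4666 and 3476 CPM on D0 and D1, and at 6375 to 25654 CPM in the macrophage gate. Kap, 1 of the 7 markers, made up most of each of these sums. It measured 36189 to 46311 CPM in the proximal tubule gate and 5614 to 22883 CPM in the macrophage gate. In the T cell gate it measured 26873.5 and 19186 CPM on D4 and D7. The part of these other cells' RNA in the results of the 3 smaller gates was not tested.

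A dividing cell passes from G1, where cyclins D and E drive entry into the cycle, to S phase, where the genome is copied, and then to G2 and mitosis, where the chromosomes are condensed and separated. Genes for DNA synthesis are classically switched on by E2F factors at the end of G1. Genes for mitosis are switched on later, through NF-Y sites and through the CHR element bound by the MYB-MuvB and FOXM1 complexes. Tubule cells of the healthy adult kidney divide rarely, and surviving proximal tubule cells re-enter the cycle after injury.

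The promoters of the phase lists differed in these motifs. RefSeq promoter windows of build GRCm38.p6, from 250 bases before to 50 bases after the start site, were matched for 36 of the 45 genes. Mcm4, Gins2, Ccna2, Tpx2, Aurkb, Ccnd1, Ccne2, Stmn1 and H2afz had no entry. Letters were searched on both strands. A match for E2F was TTCCCGC, for its second accepted form TTGGCGC, and for its last accepted form TTCGCGC. The letters for NF-Y were CCAAT, and a match for CHR was TTTGAA, or with another middle base TTCGAA. E2F letters on the reverse strand can overlap CCAAT. E2F letters were found in 9 of 14 replication genes (64.3%) and 4 of 20 mitosis genes (20.0%), against 11.8% of 17491 protein-coding genes. CHR letters were found in 2 of 14 replication genes (14.3%) and 17 of 20 mitosis genes (85.0%), against 20.2% of protein-coding genes. NF-Y letters were found in 9 of 14 and 18 of 20 (90%), against 42.3%. Over all 27025 genes of the promoter table the shares were 9.20% for E2F, 21.7% for CHR and 41.1% for NF-Y. A letter match is not a bound site, and no binding was measured here.

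**Figure D1:**
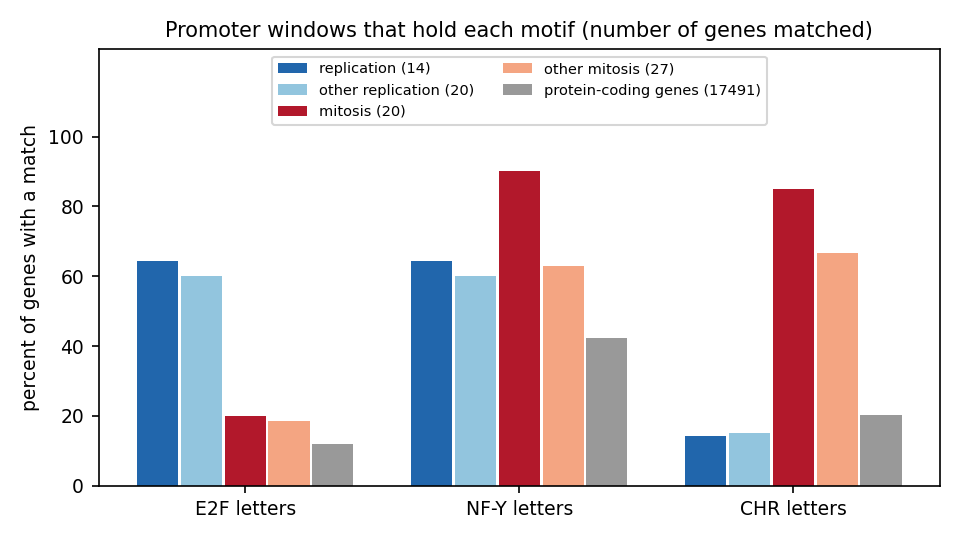
Percent of promoter windows (y axis) that hold the letters of each motif (x axis), by gene list, with the number of genes matched in the legend. E2F letters were most frequent in the replication lists (64.3% of the 14 member genes) and CHR letters in the mitosis lists (85.0% of the 20 member genes).

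The 150 bases before the start site are printed for 5 mitosis and 3 replication genes of the lists whose levels part below. They were chosen after the matches were seen, and their layout is not that of the whole lists. All 5 mitosis genes printed have CHR letters within the 150 bases. In Cenpf, Cenpa, Hmmr, Cdca3, Cdca8, Plk1, Aurka, Bub1 and Kif23 the CHR letters lay only after the start site. The E2F letters of Mcm3 and Cdt1 also lay only after the start site. Each printed stretch is written on the gene's own strand from 5′ to 3′. Capitals mark the matched letters on either strand, so that CCAAT can read ATTGG and TTTGAA can read TTCAAA. The mitosis genes come first:
Cdk1 (chr10:69352913-69353062, minus strand): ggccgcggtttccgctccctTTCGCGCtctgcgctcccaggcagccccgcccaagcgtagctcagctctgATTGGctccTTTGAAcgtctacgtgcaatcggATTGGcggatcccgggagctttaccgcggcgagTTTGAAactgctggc
Top2a (chr11:99024190-99024339, minus strand): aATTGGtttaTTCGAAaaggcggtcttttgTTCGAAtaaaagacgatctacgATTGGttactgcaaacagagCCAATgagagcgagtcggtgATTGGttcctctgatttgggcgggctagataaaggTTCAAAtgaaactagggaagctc
Mki67 (chr7:135716380-135716529, minus strand): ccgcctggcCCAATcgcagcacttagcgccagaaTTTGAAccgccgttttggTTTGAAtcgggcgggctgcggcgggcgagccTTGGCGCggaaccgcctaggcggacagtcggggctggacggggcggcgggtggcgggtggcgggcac
Ube2c (chr2:164769779-164769928, plus strand): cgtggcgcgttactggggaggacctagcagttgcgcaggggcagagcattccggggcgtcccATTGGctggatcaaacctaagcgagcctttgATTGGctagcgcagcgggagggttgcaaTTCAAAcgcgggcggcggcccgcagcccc
Cdc20 (chr4:118437344-118437493, minus strand): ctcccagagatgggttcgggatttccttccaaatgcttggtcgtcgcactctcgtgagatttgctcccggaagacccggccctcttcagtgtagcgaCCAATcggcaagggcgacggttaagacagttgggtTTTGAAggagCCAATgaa
The replication genes follow:
Mcm6 (chr1:128359706-128359855, minus strand): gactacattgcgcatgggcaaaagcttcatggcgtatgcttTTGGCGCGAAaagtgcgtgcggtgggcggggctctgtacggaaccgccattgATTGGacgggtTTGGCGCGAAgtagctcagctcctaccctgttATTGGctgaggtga
Rrm1 (chr7:102441545-102441694, plus strand): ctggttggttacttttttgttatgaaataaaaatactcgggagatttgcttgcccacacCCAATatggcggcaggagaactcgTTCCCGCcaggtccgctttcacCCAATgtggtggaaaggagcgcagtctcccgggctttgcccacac
Hells (chr19:38930840-38930989, plus strand): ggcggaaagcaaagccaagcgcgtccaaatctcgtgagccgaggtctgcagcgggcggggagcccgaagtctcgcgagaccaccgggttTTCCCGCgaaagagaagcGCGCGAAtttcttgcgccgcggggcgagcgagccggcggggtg
Cdk1, the kinase that starts mitosis, has CHR letters close to its start and NF-Y letters upstream of them. Mcm6, a subunit of the replicative helicase, has E2F letters at 2 places and no CHR letters in the 150 bases.

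In the proximal tubule gate, mitosis genes were near absent on D0 and more abundant than replication genes on D4 and D7, while replication genes began higher and had smaller ratios. The 23 mitosis genes together measured 10.9, 21.3, 255 and 359 CPM on D0, D1, D4 and D7, from 769, 1292, 18232 and 25869 UMIs. Against D0 they were 1.95-fold (1.78 to 2.13), 23.3-fold (21.6 to 25.04) and 32.8-fold (30.5 to 35.3) higher. The 16 replication genes measured 86.1, 118, 165 and 178 CPM, which was 1.37-fold (1.32 to 1.42), 1.91-fold (1.85 to 1.97) and 2.06-fold (2.00 to 2.13) higher than on D0. The 3 comparisons share the D0 library, and fewer such cells cannot be told apart from less RNA per cell in these sums. On D1 the gain in replication genes was 31.9 CPM and that in mitosis genes 10.3 CPM, whereas on D4 the gains were 78.6 and 244 CPM and on D7 91.7 and 348 CPM. Thus the replication gain was 3.08 times the mitosis gain on D1, 0.323 times on D4 and 0.264 times on D7. The D1 value rests in part on abundant genes. Without Pcna and Dut the D1 replication gain was 21.5 CPM, and Tyms alone went from 24.97 to 33.9 CPM. In the gate's cells with fewer than 3 different mitosis genes, replication genes measured 84.9 CPM on D0 and 109 CPM on D1. The median D1 ratio of all tested genes was 1.09. Over cells with at least 3000 UMIs the mitosis ratios were 1.95, 23.9 and 34.0.

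**Figure D2:**
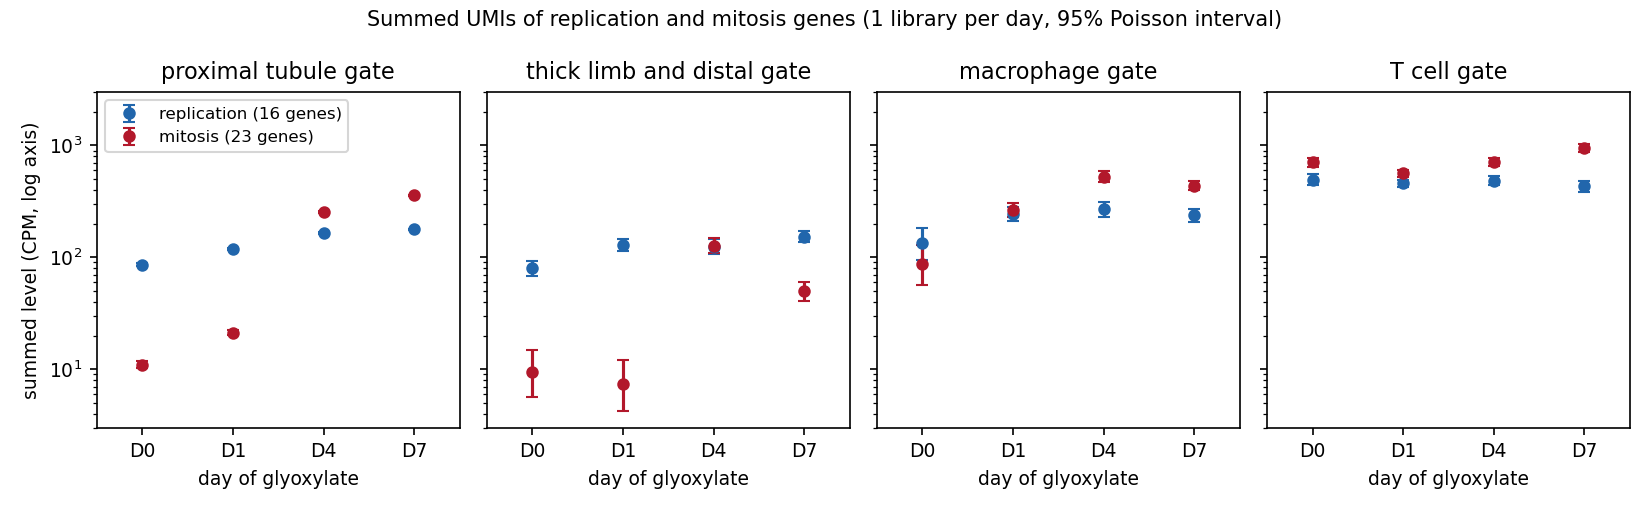
Summed level of the 16 replication genes (blue) and 23 mitosis genes (red) by day in each gate, in CPM on a log axis, with 1 library per day and bars for the 95% Poisson interval. In the proximal tubule gate mitosis genes went from 10.9 CPM on D0 to 359 CPM on D7, and in the T cell gate they were at 562 to 951 CPM on every day.

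Member by member, 8 of the 16 replication genes were at least 1.5-fold higher on D1, 14 on D4 and 15 on D7, and none was 1.5-fold lower on any day. Among all genes that reached 20 UMIs over both libraries compared, 9.79% were that much higher on D1, 10.1% on D4 and 14.3% on D7. The lower calls covered 2.6% of genes on D1 and 5.15% on D4, and the D7 share of lower genes was also 5.15%. The median replication ratio was 1.73, 2.60 and 2.88 on the 3 days, and that of all tested genes 1.09, 1.02 and 1.05, a shift of 0.12 on the log2 scale on D1. Of the 23 mitosis genes, 16 of the 22 with enough UMIs were at least 1.5-fold higher on D1, and all 23 were so on D4 and D7. Their median ratio was 1.96, 28.6 and 39.0. On D1 Bub1 did not reach 20 UMIs. No mitosis gene was 1.5-fold lower on any day. Mitosis ratios on D7 ran from 7.98 to 118 and replication ratios from 1.23 to 52.9. Uhrf1, Cdc6, Rrm2 and Gins2 were the replication genes with a larger ratio than the lowest mitosis gene.

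**Figure D3:**
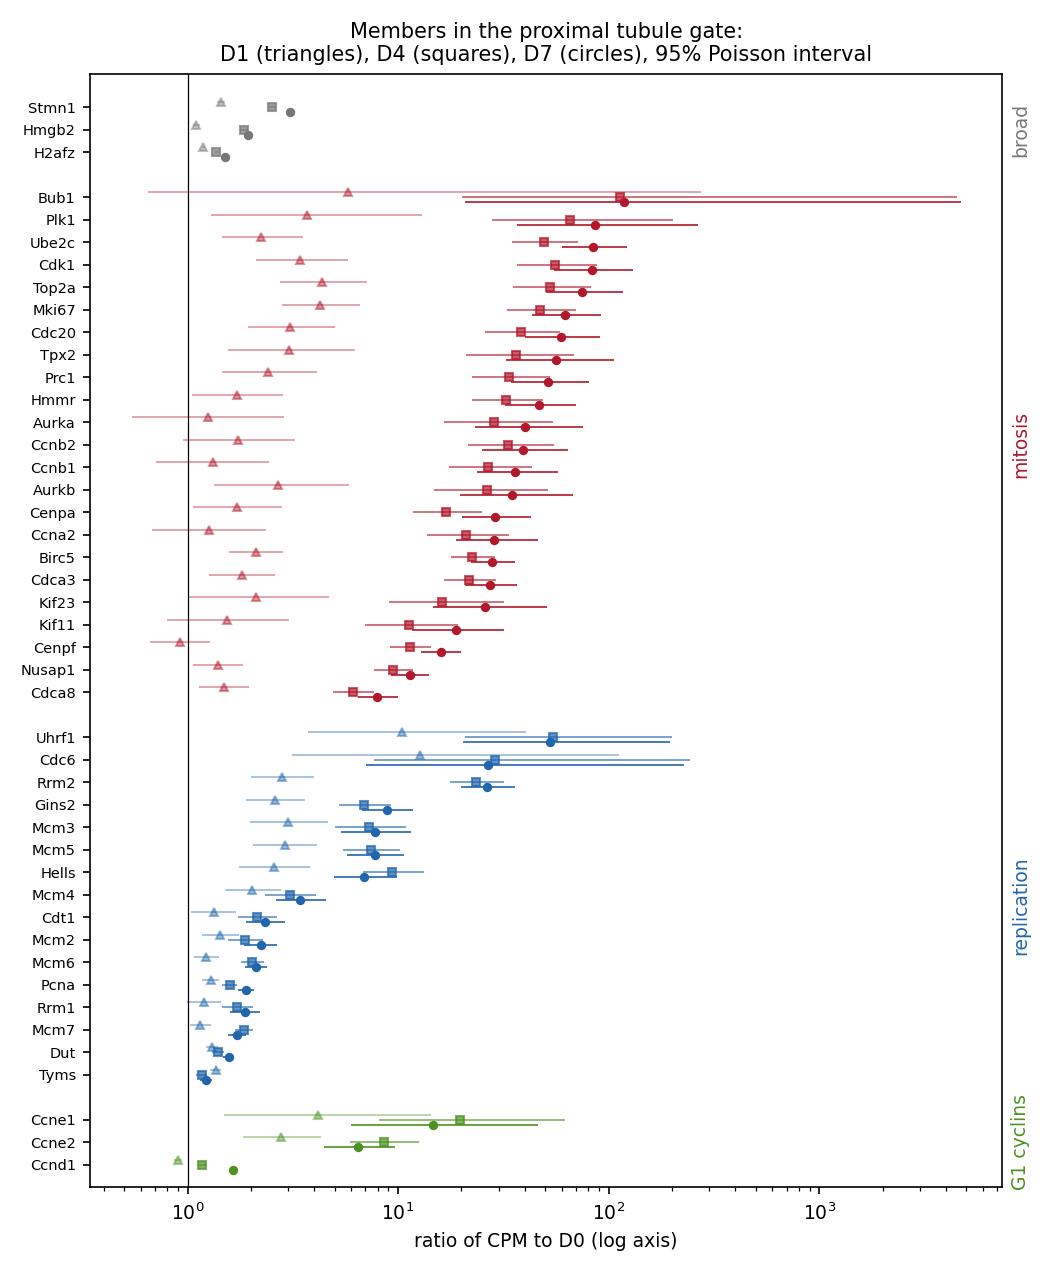
Ratio of each gene's CPM to D0 in the proximal tubule gate (x axis, log scale) on D1, D4 and D7, by list, with 95% Poisson intervals; the vertical line marks a ratio of 1. Mitosis genes on D7 lie between 7.98 (Cdca8) and 118 (Bub1), and the replication genes Uhrf1, Cdc6, Rrm2 and Gins2 lie within that range.

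Among replication genes, those nearly absent on D0 changed most. Uhrf1, which guides maintenance DNA methylation at the fork, gave 4, 36, 221 and 217 UMIs on D0, D1, D4 and D7. It was 52.9-fold higher on D7 than on D0 (20.4 to 196) and already 10.4-fold higher on D1 (3.74 to 40.3). Cdc6, which loads the helicase onto origins, gave 2, 22, 59 and 55 UMIs, a D7 ratio of 26.8 (7.08 to 227). The D4 and D7 counts of each lay close together.

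Rrm2, the cycle-dependent subunit of ribonucleotide reductase, measured 0.697, 1.96, 16.3 and 18.4 CPM. It was 26.3-fold higher on D7 (19.8 to 35.8), and its step from D1 to D4 was 8.32-fold (6.88 to 10.1). Rrm1, the large subunit of the same enzyme, measured 3.16, 3.79, 5.44 and 5.91 CPM, a D7 ratio of 1.87 (1.59 to 2.21).

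The helicase genes with little RNA on D0 had the larger ratios. Mcm3 measured 0.455, 1.37, 3.32 and 3.52 CPM and Mcm5 0.683, 1.98, 5.05 and 5.28 CPM, both 7.74-fold higher on D7 (5.34 to 11.6 and 5.72 to 10.7). Gins2, part of the active helicase, measured 0.825, 2.16, 5.68 and 7.28 CPM, a D7 ratio of 8.82 (6.72 to 11.8). Their D1 ratios were 3.003, 2.89 and 2.62. Mcm6 measured 5.73, 7.03, 11.7 and 12.1 CPM, a D7 ratio of 2.12 (1.88 to 2.39). Mcm7 measured 8.62, 9.92, 15.96 and 14.8 CPM, a D7 ratio of 1.72 (1.56 to 1.90). Mcm2 and Mcm4 lay between these, with D7 ratios of 2.22 (1.86 to 2.67) and 3.43 (2.62 to 4.54).

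Tyms, Dut and Pcna had the highest levels of the list on D0. Pcna, the sliding clamp of DNA polymerase, measured 12.1, 15.5, 19.1 and 22.9 CPM, a D7 ratio of 1.90 (1.75 to 2.06). Dut, which clears dUTP, measured 22.9, 29.9, 32.1 and 35.9 CPM, a D7 ratio of 1.57 (1.47 to 1.67). Tyms, thymidylate synthase, measured 24.97, 33.9, 29.1 and 30.6 CPM and was the replication gene between the 1.5-fold limits on D7, at 1.23 (1.15 to 1.31). Tyms was highest on D1, and its D4 level was 0.858 times that of D1 (0.807 to 0.913).

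Mitosis genes were at or below 1.42 CPM each on D0. Mki67, the proliferation antigen that coats mitotic chromosomes, measured 0.427, 1.81, 20.1 and 26.4 CPM and was 61.9-fold higher on D7 than on D0 (43.2 to 91.96). Top2a, which untangles sister chromatids, measured 0.341, 1.48, 17.98 and 25.6 CPM, a D7 ratio of 74.9 (50.2 to 117). Cdk1 measured 0.327, 1.12, 18.1 and 27.1 CPM, a D7 ratio of 82.95 (55.1 to 131). These genes were 3.42-fold to 4.34-fold higher already on D1.

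Ube2c, the ubiquitin-conjugating enzyme of the anaphase-promoting complex, measured 0.469, 1.05, 23.1 and 39.6 CPM, which made it the most abundant mitosis gene on D7. It was 84.3-fold higher on D7 (59.9 to 123) and 2.25-fold higher on D1 (1.45 to 3.53). Plk1, a kinase of spindle assembly, gave 5, 16, 334 and 442 UMIs, a D7 ratio of 86.2 (36.7 to 267). Bub1, a kinase of the spindle checkpoint, gave 1, 5, 116 and 121 UMIs, and its D7 ratio of 118 has an interval from 20.8 to 4697 because D0 held 1 UMI.

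The smallest mitosis ratios on D7 belonged to Cdca8, Nusap1 and Cenpf, which were the most abundant of the list on D0. Cdca8, of the chromosomal passenger complex, measured 1.38, 2.06, 8.45 and 11.01 CPM, a D7 ratio of 7.98 (6.46 to 9.96). Nusap1, a spindle protein, measured 1.42, 1.98, 13.5 and 16.1 CPM, a D7 ratio of 11.3 (9.25 to 14.1). Cenpf, a kinetochore protein, measured 1.27, 1.17, 14.5 and 20.2 CPM, a D7 ratio of 15.9 (12.9 to 20.0). Cenpf was the mitosis gene whose D1 level lay below that of D0, with a ratio of 0.924 (0.666 to 1.28).

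The cyclins of G1 did not move together. Ccnd1, the D cyclin that answers growth signals, measured 57.8, 52.2, 67.9 and 94.7 CPM. It was 0.903 times its D0 level on D1 (0.862 to 0.946), 1.17-fold on D4 (1.13 to 1.23) and 1.64-fold on D7 (1.57 to 1.70). Ccne1 and Ccne2, the E cyclins of S-phase entry, gave 5, 18, 100 and 75 UMIs and 33, 79, 287 and 219 UMIs. Ccne2 was 8.54-fold higher than on D0 on D4 (5.94 to 12.6) and 6.47-fold on D7 (4.47 to 9.64). Its D7 level was 0.758 times that of D4 (0.633 to 0.907), whereas Ccnd1 was 1.39-fold higher on D7 than on D4 (1.34 to 1.45).

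The 3 genes with a broader role were abundant on D0. Stmn1, which destabilises microtubules, measured 55.5, 80.1, 140 and 171 CPM, a D7 ratio of 3.07 (2.96 to 3.19). Hmgb2, a chromatin protein, measured 66.9, 73.7, 124.6 and 129.7 CPM, a D7 ratio of 1.94 (1.87 to 2.01). H2afz, a histone variant, measured 262, 312, 359 and 392 CPM, a D7 ratio of 1.499 (1.47 to 1.53), which lies just under the limit of 1.5.

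Between D4 and D7 the phases parted again. Mitosis genes together were 1.41-fold higher on D7 than on D4 (1.38 to 1.44) and replication genes 1.08-fold (1.05 to 1.11). The median over single genes was 1.40 for mitosis, 1.07 for replication and 1.04 for all tested genes. Of the mitosis genes, 22 of 23 lay above the all-gene median, from Bub1 at 1.04 to Ube2c at 1.71 (1.61 to 1.82). Of the replication genes, 12 of 16 did, from Hells at 0.737 (0.631 to 0.860) to Gins2 at 1.28 (1.12 to 1.46). Hells, a chromatin remodeller of S phase, gave 41, 91, 392 and 291 UMIs over the 4 days.

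Other genes of the same machinery were taken from lists also chosen with earlier results known. For comparison, 14.3% of all tested genes in the gate were at least 1.5-fold higher on D7 and 5.15% were that much lower. Of 25 further replication genes, 17 of the 24 with enough UMIs were at least 1.5-fold higher on D7 and none was lower, with a median ratio of 1.95. The largest ratios were those of Chaf1b (12.04, 7.34 to 21.1), a histone chaperone, Clspn (8.84, 5.17 to 16.2), a checkpoint adaptor, and Pole (7.31, 4.17 to 13.8), the leading-strand polymerase. Rfc2, of the clamp loader, was at 1.23 (1.16 to 1.30). Of 32 further mitosis genes, 29 were higher on D7 and none was lower, with a median of 15.5. Ckap2, a spindle protein, went from 3 to 497 UMIs, Ttk, a checkpoint kinase, from 1 to 107, and Pbk, a mitotic kinase, from 13 to 837. Cks2 and Pttg1, which are listed as mitosis genes but were at 166 and 63.4 CPM on D0, had D7 ratios of 1.02 (0.994 to 1.05) and 0.978 (0.938 to 1.02).

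Of 24 regulators of the cycle, 12 were at least 1.5-fold higher on D7 and 1 was lower. Of all tested genes 14.3% were that much higher and 5.15% lower, so 1 lower gene of 24 is near that share. Foxm1, a transcription factor of G2 genes, gave 7, 15, 143 and 200 UMIs, a D7 ratio of 27.9 (13.3 to 70.2). E2f8, a repressor of E2F targets, gave 0, 7, 68 and 70 UMIs and was at least 22.7-fold higher on D7, with D0 set to a floor of 3 counts. Cdc25c, the phosphatase that releases Cdk1, gave 2, 3, 36 and 45 UMIs. Ccnd2, a second D cyclin, was the lower gene, at 2.94, 4.28, 1.70 and 1.39 CPM, a D7 ratio of 0.471 (0.367 to 0.601). Rbl2, a pocket protein of resting cells, was at 0.780 (0.712 to 0.855).

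Inhibitors of cyclin-dependent kinases restrain the cycle. Of 7, 4 of the 6 with enough UMIs were at least 1.5-fold higher on D7 and none was lower. The shares over all tested genes were 14.3% higher and 5.15% lower. Cdkn1a, the p21 inhibitor induced by p53, measured 6.09, 12.7, 18.7 and 25.4 CPM, a D7 ratio of 4.18 (3.76 to 4.65). Cdkn1c was at 2.87 (1.95 to 4.31) and Cdkn2d, of the INK4 family, at 2.41 (2.15 to 2.71). Cdkn2c was at 1.29 (1.20 to 1.39), or 0.890 (0.817 to 0.968) without the cells with at least 3 mitosis genes described next, and Cdkn1b, the p27 inhibitor, at 0.820 (0.757 to 0.889).

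On D4 and D7 most mitosis UMIs came from few cells. Cells of the proximal tubule gate with UMIs of at least 3 different mitosis genes numbered 9, 31, 554 and 484 on D0, D1, D4 and D7, or 0.0801, 0.389, 4.13 and 4.13% of the gate. They held 27.2, 58.5, 91.9 and 93.7% of its mitosis UMIs and 1.62, 7.80, 41.2 and 43.8% of its replication UMIs. The gate's other cells stood at 7.98, 8.88, 21.8 and 24.1 CPM of mitosis genes and 84.9, 109, 102 and 106 CPM of replication genes. Without the cells with at least 3 mitosis genes, the replication list was 1.29-fold, 1.21-fold and 1.25-fold higher than on D0 on D1, D4 and D7, and the mitosis list 1.11-fold (0.986 to 1.25), 2.73-fold and 3.01-fold. Tyms then lay below its D0 level on D7, at 0.893 (0.833 to 0.957).

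The share of cells with at least 3 mitosis genes was 4.13% on both D4 (3.804 to 4.485) and D7 (3.78 to 4.51), but such cells carried more mitosis RNA on D7. Their mitosis genes summed to 4370 CPM on D4 and 5604 CPM on D7, and their replication genes to 1268 and 1298 CPM. Cells with at least 3000 UMIs were then thinned to that depth. The 464 of D4 that still had at least 3 mitosis genes held a median of 12 mitosis UMIs (quartiles 7 and 21). The 406 of D7 held a median of 18 (quartiles 10 and 27.8). Median replication UMIs in these thinned cells were 3 on D4 and 4 on D7. Without thinning, the 554 cells of D4 and 484 of D7 had median depths of 6229 and 8274 UMIs, against 4699 and 5287 in the rest of the gate.

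Marker levels in these cells are given by day. The 9 cells of D0 held proximal tubule markers at 3805 CPM against 50657 CPM in the rest of the gate, and the markers of macrophages, T cells, B cells and endothelium were all at 0 in them. Kap made up most of that difference, at 2225 CPM against 46003 CPM. The other 6 markers varied: Slc5a2 was at 1.03 times the rest, Cubn 0.380, Lrp2 0.356, Slc34a1 0.346, Slc13a3 0.188 and Slc22a6 0.0913. On D1 the 31 cells held the 7 proximal tubule markers at 36806 CPM against 39597 CPM, with B cell markers at 127 CPM against 9.34 CPM. Each of the 3 B cell markers had UMIs in only 1 of the 31 cells. Without every cell that had a B cell marker, the D1 mitosis ratio was 1.87 (1.71 to 2.05). On D4 and D7 the proximal tubule markers stood at 43466 and 30593 CPM against 51111 and 42223 CPM, and all 3 endothelial markers were at 0, beside 0.516 and 0.502 CPM in the rest. On D4 macrophage markers stood at 58.2 CPM against 45.9 CPM, natural killer cell markers at 11.2 against 5.12 CPM and mesenchymal markers at 8.87 against 2.07 CPM. Few cells held the last 2: the mesenchymal marker Col3a1 gave 31 UMIs in 2 of the 554 cells. The natural killer cell marker Gzma gave 26 UMIs in 4 of them. On D7 T cell markers stood at 5.78 CPM against 3.35 CPM and macrophage markers at 78.4 against 115 CPM. The part of such other cells in these values was not tested. Slc34a1, the phosphate transporter, was at 0.553 (0.539 to 0.567) and 0.497 (0.484 to 0.511) times its level in the rest of the gate. Of such cells before doublet removal, 22.3% on D4 and 22.6% on D7 were removed as doublets, against 12.8 and 11.3% of the gate, and the part of doublets in these values was not tested.

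Within the same cells, some of the 7 inhibitors were high and others were not. Cdkn1a measured 124.9 CPM on D4 and 123 CPM on D7, against 12.6 and 19.2 CPM in the rest of the gate. Cdkn2c measured 106 and 129 CPM against 12.4 and 14.97 CPM, and Cdkn2d 115 and 130 CPM against 6.00 and 6.83 CPM. Cdkn1b measured 29.2 and 37.2 CPM against 14.9 and 14.3 CPM. Cdkn1c was at 0.512 times the rest on D4 (0.0609 to 1.92) and 1.28 times on D7 (0.537 to 2.62). Cdkn2b gave 0 UMIs on D4 and 7 on D7, against 27 and 54 in the rest, and Cdkn2a 0 and 2. Cdkn2d had a UMI in 43.9% of these cells on D4 and 3.11% of the rest, at the depths given above. Havcr1, a marker of tubule injury, measured 13.0 CPM in them on D4 and 33.1 CPM on D7, against 18.5 and 24.4 CPM. Ccnd1 measured 52.4 and 93.6 CPM against 68.8 and 94.8 CPM, so this G1 cyclin was not concentrated in them on D4 and D7. In the 31 such cells of D1 it measured 142 CPM against 51.7 CPM, a ratio of 2.74 (2.02 to 3.63). Rrm2 was concentrated in them on D4 and D7, at 269 and 278 CPM against 2.02 and 1.79 CPM. Tyms was at 153 and 163 CPM against 22.1 and 22.2 CPM.

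Cells were also classed after thinning to 3000 UMIs, which left out 3181, 2226, 352 and 615 shallower cells. At least 2 mitosis genes were seen in 0.112% (0.0511 to 0.212), 0.348% (0.213 to 0.538), 4.33% (3.99 to 4.69) and 4.23% (3.86 to 4.62) of proximal tubule gate cells on D0, D1, D4 and D7. Unthinned, the shares were 0.249, 0.753, 5.05 and 5.17%. Neutrophils, which do not divide, served as a comparison with at least 5 UMIs of S100a8 and S100a9. At 3000 UMIs, 0 of 26 neutrophil gate cells had 2 mitosis genes on D4, which allows up to 11.5%, and 2 of 31 did on D7 (6.45%). Their median unthinned depths were 4566 and 4665 UMIs, beside 4754 and 5359 in the proximal tubule gate. Proximal tubule markers stood at 11406 to 41962 CPM in the neutrophil gate, which holds too few cells to set a background for the tubule shares.

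To see cells with replication genes but few mitosis genes, Pcna, Dut, Tyms and Mcm7, the 4 replication genes with the highest level on D0, were left out, a choice made after the data were seen. At least 2 of the 12 genes left, with at most 1 mitosis gene, were found in 0.174% (0.0950 to 0.291), 0.523% (0.353 to 0.745), 1.07% (0.903 to 1.27) and 0.882% (0.717 to 1.07) of thinned cells. At least 2 of the 12 together with at least 2 mitosis genes were found in 0.0497% (0.0135 to 0.127), 0.157% (0.0717 to 0.297), 1.78% (1.56 to 2.02) and 1.89% (1.65 to 2.16). On D1 the cells with replication genes alone were 30 and those with both 9, whereas on D4 they were 140 and 232 and on D7 98 and 210. On D0 too the share with replication genes alone (0.174%) was above that with both (0.0497%), so this order was not particular to D1.

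**Figure D4:**
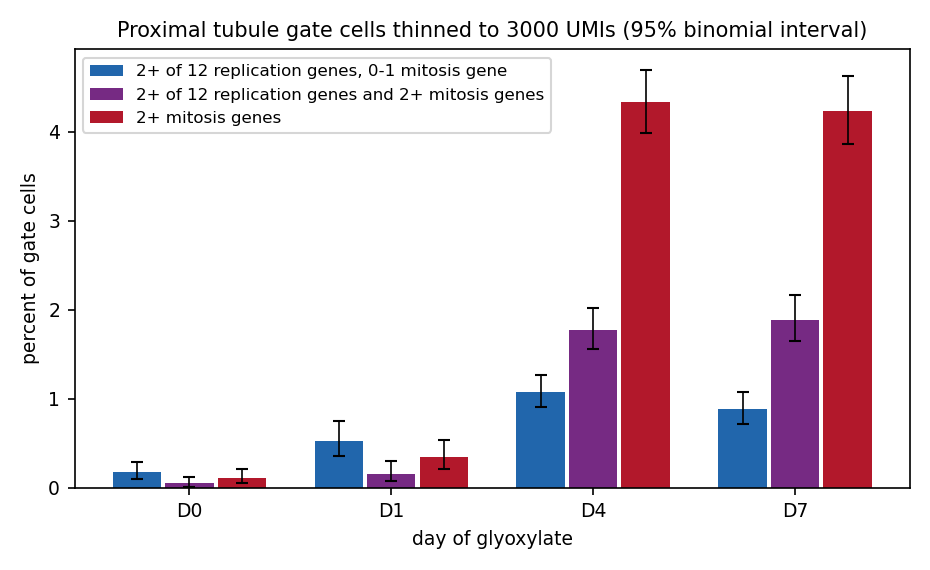
Percent of proximal tubule gate cells, thinned to 3000 UMIs, by day in 3 classes that overlap, since cells with both kinds of gene are also counted under 2 or more mitosis genes; bars show the 95% binomial interval. The class with at least 2 mitosis genes covers 4.33% of cells on D4 and 4.23% on D7 and 0.112% on D0.

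The balance of replication against mitosis UMIs in the proximal tubule gate was 7.87 (7.30 to 8.497) on D0, 5.54 (5.23 to 5.89) on D1, 0.647 (0.632 to 0.662) on D4 and 0.496 (0.485 to 0.506) on D7. It needs no scaling to depth, since both sums come from the same cells. Replication UMIs were the larger sum on D0 and D1 and mitosis UMIs on D4 and D7. The balance on D0 rests on abundant genes: without Pcna, Dut, Tyms and Mcm7 it was 1.60, 1.35, 0.269 and 0.205. Within the cells with at least 3 mitosis genes it was 0.469, 0.739, 0.290 and 0.232, and in the rest of the gate 10.6, 12.3, 4.70 and 4.42. These cells were picked by their mitosis genes, so by construction the balance is lower in them than in the rest. The 57 further genes give a balance of 0.712, 0.779, 0.663 and 0.597, in which Cks2 and Pttg1 hold many of the mitosis UMIs.

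**Figure D5:**
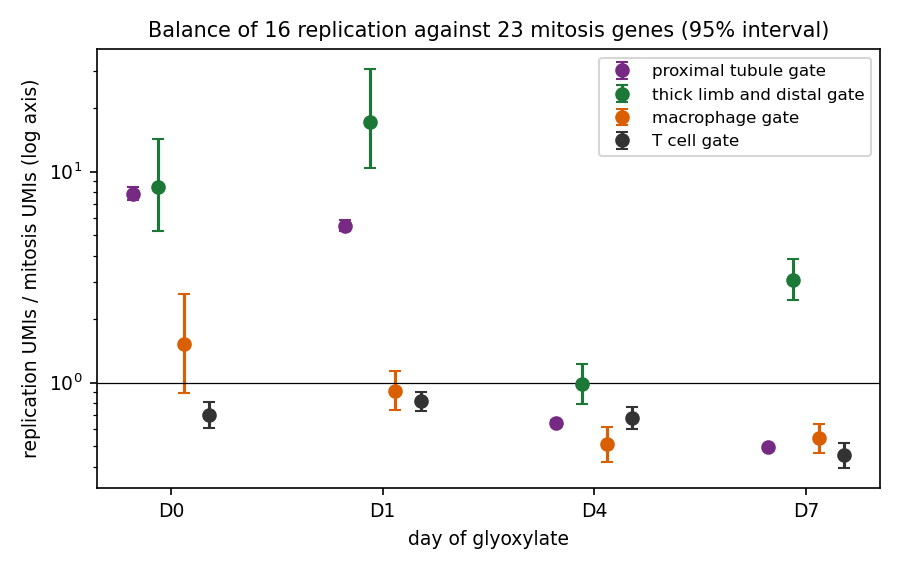
Replication UMIs divided by mitosis UMIs (y axis, log scale) by day in each gate, with 95% intervals and a line at 1. In the proximal tubule gate the value was 7.87 on D0 and 0.496 on D7, and in the T cell gate it was between 0.452 and 0.818 on all 4 days.

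In the thick limb and distal gate, mitosis genes were seen on D4 and D7 and hardly before. They measured 9.45, 7.46, 127 and 49.8 CPM from 19, 16, 170 and 110 UMIs, 13.4-fold higher than on D0 on D4 (8.35 to 22.9) and 5.26-fold on D7 (3.22 to 9.08). With doublets kept these ratios were 19.3 (12.2 to 32.2) and 17.5 (11.2 to 29.0), so the lower level on D7 than on D4 depends on doublet removal, which took 7 of 13 cells with at least 3 mitosis genes on D7 and 4 of 11 on D4. Replication genes measured 79.6, 129, 124.9 and 153 CPM, 1.62-fold (1.33 to 1.98), 1.57-fold (1.26 to 1.96) and 1.93-fold (1.59 to 2.34) higher. Without cells that passed more than 1 gate the replication ratios were 1.12, 1.04 and 1.11 (0.836 to 1.502, 0.665 to 1.58 and 0.809 to 1.53), so a difference in the replication list was not detectable at the depth of those cells. Of the 7 cells with at least 3 mitosis genes on D4, 6 also passed another gate, and so did all 6 on D7. Without cells in more than 1 gate the D4 mitosis ratio was 46.5 (15.01 to 233) and the D7 ratio 4.45 (1.18 to 24.9). The 6 overlapping cells of D4 held 95 of the 135 mitosis UMIs of the 7. The D4 ratio of 46.5 thus includes only 1 cell with at least 3 mitosis genes, and the D7 ratio includes none.

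Single genes in this gate had few UMIs. Mki67 gave 1, 0, 17 and 7 UMIs, Cdca3, which helps trigger entry into mitosis, 1, 1, 11 and 11, and Cenpf 7, 0, 14 and 5. Dut gave 66, 77, 51 and 95 UMIs, a D7 ratio of 1.31 (0.946 to 1.82), and Tyms 30, 55, 23 and 44, a D7 ratio of 1.33 (0.820 to 2.20). Pcna gave 17, 42, 21 and 37 UMIs and was 2.31-fold higher on D1 (1.29 to 4.34) and 1.98-fold on D7 (1.09 to 3.75). The balance was 8.42, 17.3, 0.982 and 3.08. On D7 replication UMIs were the larger sum here (2.48 to 3.86) after doublet removal.

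In the macrophage gate both lists were higher on all 3 later days over all kept cells. Mitosis genes measured 88.0, 266, 527 and 436 CPM from 25, 190, 327 and 450 UMIs, 3.03-fold (1.99 to 4.79), 5.99-fold (3.99 to 9.39) and 4.95-fold (3.31 to 7.73) higher than on D0. The 1, 5, 15 and 20 cells with at least 3 mitosis genes held 44.0, 84.2, 91.1 and 85.6% of the mitosis UMIs, and 1 cell held 99 of the 190 on D1. The other cells of the gate stood at 49.8, 43.8, 55.4 and 74.2 CPM, so the D1 ratio rests on 5 cells. Of the cells with at least 3 mitosis genes, 6 on D4 and 6 on D7 also passed another gate. They held 88 of 298 mitosis UMIs on D4 and 135 of 385 on D7. On D0, D1, D4 and D7, 16, 24, 47 and 54 macrophage gate cells also passed the proximal tubule gate. Replication genes measured 134, 244, 269 and 237 CPM, 1.82-fold (1.28 to 2.66), 2.01-fold (1.41 to 2.94) and 1.77-fold (1.26 to 2.57) higher. Over cells with at least 3000 UMIs, of which D0 held 26, the mitosis ratios were 1.74 (1.08 to 2.96), 3.11 (1.96 to 5.24) and 2.61 (1.65 to 4.38). The replication ratios were then 1.11, 1.36 and 1.22, with intervals that include 1. Ube2c gave 1, 23, 27 and 42 UMIs, Top2a 2, 21, 36 and 27, and Mki67 6, 12, 42 and 39. Pcna gave 5, 24, 23 and 41 UMIs, Dut 5, 22, 21 and 32, and Mcm3 2, 20, 6 and 28. Ccnd1 went the other way, at 254, 151, 115 and 122 CPM, a D7 ratio of 0.481 (0.357 to 0.652). On D4 and D7, 13.6% (7.84 to 21.5) and 12.5% (7.70 to 18.8) of thinned macrophage gate cells had at least 2 mitosis genes.

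In the T cell gate the mitosis list measured 705, 562, 710 and 951 CPM, 0.797 times its D0 level on D1 (0.710 to 0.896), 1.008-fold on D4 (0.892 to 1.14) and 1.35-fold on D7 (1.20 to 1.52). Few cells held most of it: the 8, 17, 30 and 18 cells with at least 3 mitosis genes held 85.3, 82.9, 93.2 and 93.6% of the mitosis UMIs on the 4 days, and 1 cell held 245 of the 830 on D1. The other cells of the gate stood at 115, 107, 60.1 and 75.9 CPM. Replication genes measured 495, 459, 484 and 430 CPM, with ratios of 0.927, 0.977 and 0.867 whose intervals include 1. Over cells with at least 3000 UMIs, of which D0 held 62, the mitosis ratios were 0.541 (0.478 to 0.613), 0.560 (0.493 to 0.636) and 0.764 (0.674 to 0.867), and the replication ratios 0.706 (0.603 to 0.829), 0.656 (0.556 to 0.776) and 0.607 (0.509 to 0.725). The direction of the D4 and D7 mitosis ratios thus depends on the depth floor. Without cells in more than 1 gate the D7 mitosis ratio was 1.05 (0.919 to 1.20). Ube2c measured 73.9, 76.4, 80.1 and 133 CPM and Top2a 94.4, 56.2, 83.4 and 92.5 CPM. Cenpa, the centromeric histone, measured 112, 94.0, 45.01 and 62.6 CPM, a D7 ratio of 0.560 (0.378 to 0.823). Dut measured 132, 83.9, 116 and 99.3 CPM, Pcna 50.3, 44.0, 41.7 and 40.8 CPM, and Mcm6 45.6, 58.9, 26.3 and 32.6 CPM. Thinned cells with at least 2 mitosis genes were 12.9% (5.74 to 23.9), 6.64% (3.84 to 10.6), 16.8% (11.5 to 23.2) and 15.7% (9.73 to 23.4) of the gate.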

How the data were processed

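Single-cell RNA sequencing of kidney was deposited by the authors as a matrix of raw UMI counts per library. Cell Ranger 3.1.0 and build mm10 are named per the submitters' processing notes. Software version 3.0.1 is named per the file headers. No annotation release or cell-calling method is given in the sources used here. A cell was kept if it had 300 or more genes, 500 or more UMIs and no more than 50% of UMIs from mitochondria. The highest Scrublet scores were removed as doublets at 0.8% per 1000 cells. This left 49941 cells, with median depths of 4666 to 5241 UMIs.

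UMIs were summed by gate and day, divided by the gate's UMI sum and scaled to CPM. A cell could pass more than 1 gate. Ratios have exact Poisson 95% intervals and shares Clopper-Pearson intervals, both for counting error only. A count of 0 was given a limit of 3 counts. A gene was called at 1.5-fold with at least 20 UMIs in the pair of libraries. With 1 library per day there was no test and no p-value. The ratios and their intervals were tested on simulated data. The simulated counts were independent Poisson draws, so the test does not cover UMIs that cluster in few cells, as the mitosis UMIs do. The members and lists were chosen with earlier results of these data known.

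The genes named were Mki67, Top2a, Pcna, Mcm6, Ccnd1, Stmn1, H2afz, Hmgb2 and Cdkn1a, plus, by D7 ratio in the proximal tubule gate, the 6 highest and 3 lowest members of each phase list and the 3 highest and 2 lowest of each other list, of which 1 gene is not reported here. In the other gates they were the 3 members of each phase list with the most UMIs. Ccne1, Ccne2, Rrm1, Mcm2, Mcm4, Hells and the genes of the cells with at least 3 mitosis genes were given as well, to describe the lists. Alternatives changed the mitochondrial limit, the UMI floor, doublet removal, gate overlap, gate thresholds, scaling (edgeR 4.0.16 TMM factors), gene lists and thinning. Leaving out Pcna, Dut, Tyms and Mcm7, and leaving out cells with a B cell marker, were added after seeing the data. Python 3.11.15, numpy 2.4.6, scipy 1.17.1, pandas 2.3.3, scanpy 1.11.5, matplotlib 3.10.9 and R 4.3.3 were used.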

Additional observations from a re-analysis of the deposited data

Results flagged for a closer look

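On D1 the mitosis list differed in direction between gates. It was 0.797 times its D0 level in the T cell gate but 1.95-fold higher in the proximal tubule gate and 3.03-fold higher in the macrophage gate. The difference between the gates was not tested, since each day has 1 library.

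Mitosis genes were also seen in cells outside the 4 gates. Cells that passed no gate held 45.5, 67.4, 284 and 186 CPM on D0, D1, D4 and D7, which was 1.48-fold, 6.25-fold and 4.09-fold higher than on D0. Barcodes removed for over 50% mitochondrial UMIs held 4.95, 14.2, 106 and 96.3 CPM, which was 2.86-fold, 21.3-fold and 19.5-fold higher. In the neutrophil gate the list was 15.9-fold higher on D7 than on D0 (7.92 to 37.4). It stood at 986 CPM from 190 UMIs in 36 cells against 61.9 CPM from 8 UMIs in 42 cells. Of these, 11 cells on D7 and 5 on D0 also passed the proximal tubule gate, and their part in the ratio was not tested.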

How the results depend on the processing

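No paired analysis was possible because the groups compared share fewer than 2 replicate numbers. Each day is 1 library, so day, animal and library cannot be told apart, and depth limits the 3 smaller gates. The causes of the changes below were not tested unless the setting's construction shows them. The balance in the proximal tubule gate on D0, D1, D4 and D7 was 13.2, 8.07, 0.935 and 0.771 with the G1 cyclins, 4.67, 3.41, 0.446 and 0.332 without Pcna and Dut, and 1.60, 1.35, 0.269 and 0.205 without Pcna, Dut, Tyms and Mcm7. Without cells with at least 3 mitosis genes it was 10.6, 12.3, 4.70 and 4.42, so its direction on D4 and D7 reversed. By construction that setting removes most mitosis UMIs: the D1, D4 and D7 ratios were then 1.11, 2.73 and 3.01 for mitosis and 1.29, 1.21 and 1.25 for replication, and Tyms (0.893) and Cdkn2c (0.890) reversed on D7. With at least 3000 UMIs per cell the D1, D4 and D7 ratios were 0.541, 0.560 and 0.764 for mitosis in T cells, the last reversed, and 0.706, 0.656 and 0.607 for replication. In macrophages they were 1.74, 3.11 and 2.61 for mitosis and 1.11, 1.36 and 1.22 for replication. With at most 25% mitochondrial UMIs the proximal tubule balance was 0.622 on D4 and 0.457 on D7, and thick limb and distal replication ratios were 1.22, 1.09 and 1.5003. Without cells in more than 1 gate those were 1.12, 1.04 and 1.11, the D4 mitosis ratio there 46.5 and the D7 mitosis ratio in T cells 1.05. That ratio of 46.5 includes only 1 cell with at least 3 mitosis genes. With doublets kept, the proximal tubule mitosis ratios were 1.59, 19.9 and 28.5, the D0 balance 6.79, the thick limb and distal mitosis ratio on D7 17.5 and the T cell mitosis ratio on D4 1.28. With TMM scaling, proximal tubule replication ratios were 1.26 on D1 and 1.95 on D7. With stricter gates, D4 ratios were 2.01 for proximal tubule replication, 1.24 for thick limb and distal replication, 1.14 for T cell replication and 1.15 for T cell mitosis, and the D7 balance was 0.476. Unthinned, shares of cells with at least 2 mitosis genes were 0.249, 0.753, 5.05 and 5.17% in the proximal tubule gate and 3.49% in the thick limb and distal gate on D7. With at least 3 mitosis genes they were 3.56 and 3.66% in the proximal tubule gate on D4 and D7 and 0.284% in the thick limb and distal gate on D7.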
